A study of Homo sapiens with 23 samples.

Results

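The 40 genes described here serve the cell cycle and DNA replication, and their RNA was measured in 13 lines of MCF10A, a non-transformed human mammary epithelial cell line. The genes were taken by name from the table of RNA levels, where 40 of 40 were found among 58358 genes, and were split into 17 genes of S phase and DNA replication and 23 genes of G2 and mitosis. The rule uses names and no measured value. The lines are 4 DNA contact mutants of p53 (R273H, R273C, R248W and R248Q), 6 structural mutants (R175H, H179R, G245S, Y234C, Y220C and Y163C) and 3 control lines, namely WTKD with an shRNA against wild-type p53, WTOE with ectopic V5-tagged wild-type p53, and WT, the untagged parental cells. Mutant p53 carries the V5 tag in the vector pLenti4/V5-DEST and WTOE was made with pLX304, so effects of the vector and of the mutation cannot be told apart, and the mutant lines keep their endogenous wild-type copy. All lines were untreated stable cultures with 1 RNA library each, so a group of mutants is a group of lines and not of repeated cultures.

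Cells enter S phase when cyclin E and CDK2 release E2F transcription factors from the retinoblastoma protein, and E2F factors then drive genes for origin licensing, the replicative helicase and nucleotide synthesis. Genes of G2 and mitosis follow later, under a complex of MYB and MuvB proteins and FOXM1, and are repressed in resting cells by the related DREAM complex. CDKN1A (p21) inhibits cyclin-dependent kinases and so holds back both sets. In a bulk RNA sample, fewer cycling cells and less RNA per cycling cell cannot be told apart.

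The sequence just before the start site is shown for 3 S phase and 5 G2/M members, because it holds the motifs that E2F, NF-Y and DREAM factors are known to read. RefSeq promoter sequences (GRCh38.p14, 250 bases before to 50 after a start) were at hand for 32 of the 40 members. The stretches below cover the 160 bases up to the start site, 5′ to 3′ on the strand of the gene, and capitals mark the CCAAT box (CCAAT), the CHR element (TTTGAA or TTCGAA) and an E2F octamer (TTTCGCGC, TTTGGCGC or TTTCCCGC), each on either strand.
E2F1, chr20:33686386-33686545, minus strand: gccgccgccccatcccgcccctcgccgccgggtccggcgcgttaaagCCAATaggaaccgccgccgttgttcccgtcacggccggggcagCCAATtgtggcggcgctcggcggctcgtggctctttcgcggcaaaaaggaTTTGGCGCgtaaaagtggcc
MCM6, chr2:135876444-135876603, minus strand: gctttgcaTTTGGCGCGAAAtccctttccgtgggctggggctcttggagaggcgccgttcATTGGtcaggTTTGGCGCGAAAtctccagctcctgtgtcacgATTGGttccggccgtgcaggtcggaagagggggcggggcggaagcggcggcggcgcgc
CDC6, chr17:40287719-40287878, plus strand: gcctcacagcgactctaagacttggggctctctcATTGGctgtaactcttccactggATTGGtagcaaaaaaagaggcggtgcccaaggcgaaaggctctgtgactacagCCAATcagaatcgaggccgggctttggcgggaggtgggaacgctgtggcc
MKI67, chr10:128126424-128126583, minus strand: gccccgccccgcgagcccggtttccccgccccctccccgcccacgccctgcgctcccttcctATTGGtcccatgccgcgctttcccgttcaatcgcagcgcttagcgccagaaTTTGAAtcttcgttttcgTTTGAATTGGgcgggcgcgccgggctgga
CDC20, chr1:43358821-43358980, plus strand: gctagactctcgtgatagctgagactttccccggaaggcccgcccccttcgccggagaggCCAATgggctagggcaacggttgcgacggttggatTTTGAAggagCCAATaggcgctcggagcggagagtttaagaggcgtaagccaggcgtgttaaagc
PLK1, chr16:23678729-23678888, plus strand: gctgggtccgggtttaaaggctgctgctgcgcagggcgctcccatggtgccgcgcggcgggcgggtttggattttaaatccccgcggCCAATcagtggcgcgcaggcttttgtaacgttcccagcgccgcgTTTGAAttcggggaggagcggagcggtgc
CCNB2, chr15:59104986-59105145, plus strand: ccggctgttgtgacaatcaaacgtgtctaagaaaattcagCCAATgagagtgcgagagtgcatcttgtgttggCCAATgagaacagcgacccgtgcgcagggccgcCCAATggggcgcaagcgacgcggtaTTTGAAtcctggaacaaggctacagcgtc
CCNB1, chr5:69166990-69167149, plus strand: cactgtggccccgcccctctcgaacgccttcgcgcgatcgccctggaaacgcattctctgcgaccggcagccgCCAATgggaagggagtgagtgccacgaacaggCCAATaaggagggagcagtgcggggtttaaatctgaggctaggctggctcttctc
In MCM6 the octamer TTTGGCGC overlaps a TTTCGCGC read from the other strand at each of its sites, and in MKI67 the CHR nearest the start shares its last base with a CCAAT box on the other strand. The octamer of CDC6 lies after its start and so outside the stretch, and CCNB1 holds CCAAT boxes but no CHR hexamer in its window. Over the whole 300 bases, an E2F octamer was in 11 of 14 S phase promoters (78.6%) and 3 of 18 G2/M promoters (16.7%), against 2.79% of 27305 promoters of the same length. The CHR hexamers were in 13 of 18 G2/M promoters (72.2%) and 2 of 14 S phase promoters (14.3%), against 16.6% of all promoters. A CCAAT box was in 16 of 18 G2/M and 10 of 14 S phase promoters, against 35.7% of all, and CCAAT and CHR stood together in 12 of 18 G2/M promoters, against 6.58% of all. These are matches of letters and not measured binding sites.

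Every one of the 40 genes was expressed in every line. Levels are given as log2(TPM+1), in which TPM allows for gene length and for the size of the library. It does not allow for uneven amplification of single genes, and the cDNA was amplified before sequencing. Different genes can thus be compared only roughly. All 40 were at a log2 level of at least 1 in all 13 lines, which held for 49.9% of the 14884 genes with at least that level in 3 or more lines (the genes tested). By the mean of its members, the G2/M set lay above the S phase set in 13 of 13 lines, and by the median in all lines but R273H (7.10 for G2/M and 7.22 for S phase members). The mean level of the 23 G2/M members ran over the mutant lines from 6.30 in Y234C to 7.58 in R248W with a median of 7.16, and was 7.61 in WTKD, 7.46 in WTOE and 7.42 in WT. The mean of the 17 S phase members ran over the mutant lines from 5.66 in R248Q to 6.36 in R273C with a median of 6.09, and was 6.25 in WTKD, 6.38 in WTOE and 5.97 in WT. Mutant and control lines overlapped in both means.

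**Figure D1:**
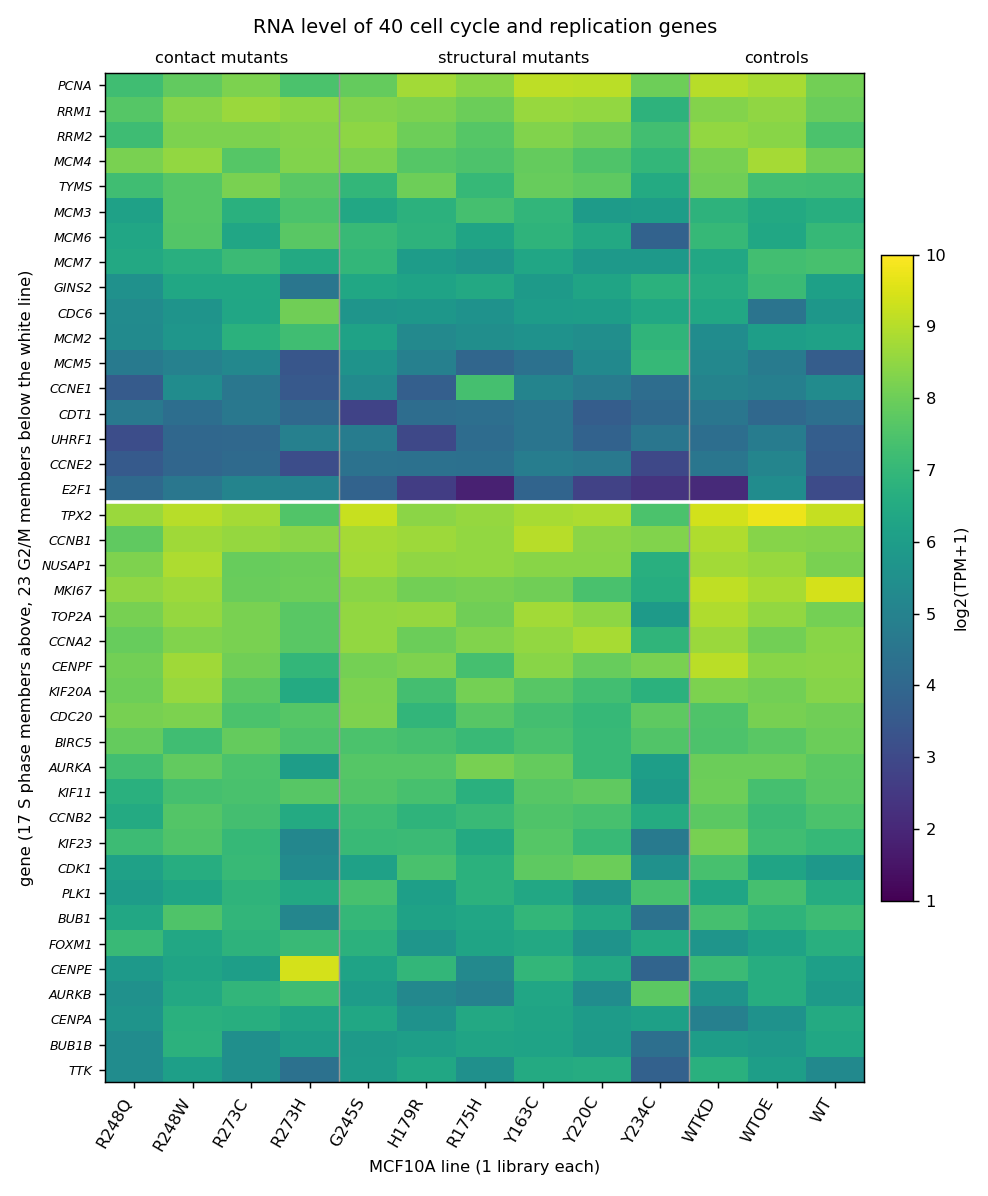
Heat map of the log2(TPM+1) level of the 40 members (rows, 17 S phase genes above and 23 G2/M genes below the white line, each block ordered by mean level) in 13 lines (columns, contact mutants, structural mutants and controls). A range above 2 was found in 15 of the 23 G2/M rows and 7 of the 17 S phase rows. Cells far from the rest of their row include CENPE and CDC6 in R273H, MCM5, MCM6 and TOP2A in Y234C and CCNE1 in R175H.

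The libraries differed in ways that bear on these levels. Depth is unknown, because the deposited table holds no counts. The methods describe high duplication in the RNA libraries, with duplicate reads marked and not removed at that step. The library of Y234C had a median log2 level of 2.63 over the tested genes and that of R273H 2.85, against 3.47 to 3.85 in the other 11, and the 50 highest genes took 46.8% and 37.4% of their TPM, against 27.1% to 33.6% elsewhere. Genes above 0 numbered 12122 in R273H and 12409 in Y234C, but also only 12284 in WT. Main results are therefore also given without R273H and Y234C or under another scaling. CDKN1A was at 5.18 in R273H and 6.30 to 8.02 in the other mutant lines, and at 6.95 in WTKD, 6.46 in WTOE and 7.78 in WT. KRT5, a basal keratin, was at 9.97 to 11.85 in all lines, but other mammary epithelial markers differed widely between lines. KRT14 ran from 0 (R273H) to 8.23 (R248Q). TP63 was at 0 in R248W, R273C and R273H and at 1.83 (G245S) to 5.41 (WTKD) in the other lines. CDH1 (E-cadherin) was at 0.96 in R248Q and 0.25 in R273H against 4.47 to 6.41 in the other 11. Of the blood markers, 4 of 5 were at 0 in all 13 lines. The summed TPM of 10 mammary epithelial markers was 1176 to 5005 in mutant lines and 1997 to 3296 in control lines. For 6 fibroblast markers it was 2.66 to 60.7 in mutant and 2.39 to 7.53 in control lines, for the blood markers 0 to 25.6 in mutant and 4.62 to 48.9 in control lines, and for 4 endothelial markers 0 to 6.13 in mutant and 0 to 1.97 in control lines. The part of these differences in the results was not tested.

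**Figure D2:**
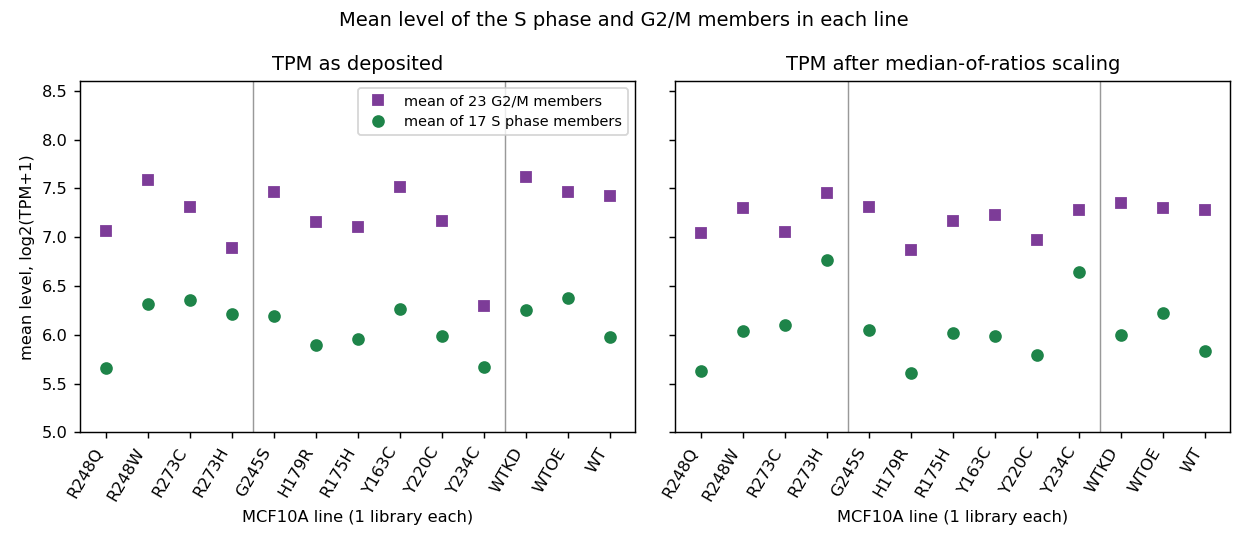
Mean log2(TPM+1) level of the 23 G2/M members (squares) and the 17 S phase members (circles) in each line, with TPM as deposited (left) and after median-of-ratios scaling between libraries (right). Y234C has the lowest G2/M mean as deposited (6.30) and an S phase mean among the highest after scaling (6.64).

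Scaling between libraries decided how Y234C and R273H stood. Y234C was the lowest line for 16 of the 40 members, 11 of them G2/M genes, and R273H for 8. The share of all tested genes lowest in each line was not counted. Against the mean of the other 9 mutants, 45.0% of tested genes were lower by more than 1 log2 in Y234C and 37.6% in R273H. After median-of-ratios scaling, which sets each library by the genes detected in all lines, the G2/M mean was 7.28 in Y234C and 7.45 in R273H, against 6.87 to 7.35 in the other 11 lines, and the S phase mean was 6.64 and 6.77, against 5.61 to 6.22. The low level of the G2/M set in Y234C was thus not kept under median-of-ratios scaling. After quantile normalization it was kept, at 6.76 in Y234C against 7.05 (R273H) to 7.57 (WTKD) in the other lines. A factor common to a library leaves the gap between the sets nearly as it is. The S phase mean minus the G2/M mean was -0.62 in Y234C and -0.68 in R273H, against -1.45 to -0.95 in the other 11 lines, so the G2/M set was closest to the S phase set in these lines.

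As single genes the members varied less from line to line than most genes. Their median SD over the 13 lines was 0.615, against 0.953 over all tested genes and 0.695 over the 4031 tested genes with a mean of at least 5. Without R273H and Y234C these were 0.458, 0.805 and 0.500. Over the 13 lines 15 of 23 G2/M members had a range above 2 on the log2 scale, and over the 11 lines without R273H and Y234C only CDK1 did. Among S phase members 7 of 17 had such a range, and over the 11 lines only CCNE1 and E2F1 did.

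The licensing and helicase genes opened the S phase set. MCM2 to MCM7 encode the 6 subunits of a hexameric ring, which CDC6 and CDT1 load onto origins and which unwinds DNA together with CDC45 and the GINS complex. The deposited levels of the 6 subunits were far from equal. MCM4 was the highest subunit in 12 of 13 lines and MCM5 the lowest in the same 12, and the gap between highest and lowest subunit was 2.22 (Y220C) to 4.89 (R273H) on the log2 scale. Y234C alone broke the order, with MCM5 highest and MCM6 lowest.

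MCM5 (ENSG00000100297, chr22:35400134-35425431, plus strand, GRCh38) was at 4.67 in R248Q, 4.97 in R248W, 5.20 in R273C and 3.42 in R273H, at 5.63 in G245S, 4.91 in H179R, 3.97 in R175H, 4.37 in Y163C, 5.28 in Y220C and 7.03 in Y234C, and at 5.19 in WTKD, 4.76 in WTOE and 3.66 in WT. Y234C stood 2.31 above the mean of the other 9 mutants and R273H lay below it (-1.69). MCM6 (ENSG00000076003, chr2:135839626-135876443, minus strand) was at 6.32 in R248Q, 7.61 in R248W, 6.33 in R273C and 7.71 in R273H, at 7.05 in G245S, 6.81 in H179R, 6.26 in R175H, 6.86 in Y163C, 6.45 in Y220C and 3.81 in Y234C, and at 7.02 in WTKD, 6.36 in WTOE and 7.02 in WT. The other 12 lines kept within 6.26 to 7.71. MCM5 was highest and MCM6 lowest in the same library, so a factor common to that library does not change their order.

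MCM4 was at 8.18 in R248Q, 8.53 in R248W, 7.63 in R273C and 8.31 in R273H, at 8.21 in G245S, 7.64 in H179R, 7.48 in R175H, 7.86 in Y163C, 7.51 in Y220C and 6.96 in Y234C, and at 8.14 in WTKD, 8.80 in WTOE and 8.09 in WT. Its levels in mutant and control lines overlapped. MCM7 was at 6.44 in R248Q, 6.69 in R248W, 7.14 in R273C and 6.47 in R273H, at 6.95 in G245S, 5.97 in H179R, 5.74 in R175H, 6.34 in Y163C, 5.85 in Y220C and 5.86 in Y234C, and at 6.41 in WTKD, 7.29 in WTOE and 7.39 in WT. WT and WTOE lay above all mutants for MCM7, and WTKD among them. MCM2 was at 5.29 in R248Q, 5.74 in R248W, 6.75 in R273C and 7.22 in R273H, at 6.18 in G245S, 5.24 in H179R, 5.46 in R175H, 5.57 in Y163C, 5.44 in Y220C and 6.89 in Y234C, and at 5.39 in WTKD, 6.04 in WTOE and 6.14 in WT. R273H, Y234C and R273C held the 3 highest values of MCM2. MCM3 lay between 5.93 (Y220C) and 7.61 (R248W).

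**Figure D3:**
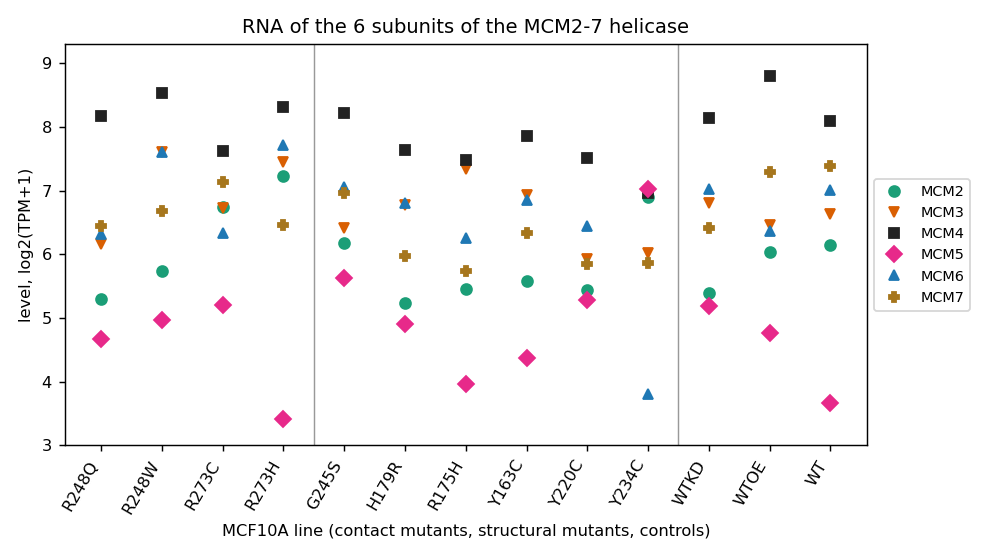
Level in log2(TPM+1) of the 6 subunits of the MCM2-7 helicase (one symbol each) in the 13 lines. MCM4 is on top and MCM5 at the bottom in 12 lines, and in Y234C MCM5 (7.03) is on top and MCM6 (3.81) at the bottom.

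CDC6 (ENSG00000094804, chr17:40287879-40304657, plus strand) was at 5.33 in R248Q, 5.66 in R248W, 6.32 in R273C and 8.05 in R273H, at 5.68 in G245S, 5.75 in H179R, 5.59 in R175H, 5.97 in Y163C, 6.01 in Y220C and 6.41 in Y234C, and at 6.41 in WTKD, 4.45 in WTOE and 5.78 in WT. The mutants other than R273H kept within 5.33 to 6.41, and WTOE was the lowest line. CDT1, the partner of CDC6 in loading the helicase, ran from 2.81 (G245S) to 4.64 (R248Q), and G245S was its only line under 3.64. GINS2, a subunit of the GINS complex, was at 5.55 in R248Q, 6.36 in R248W, 6.35 in R273C and 4.53 in R273H, at 6.37 in G245S, 6.22 in H179R, 6.44 in R175H, 5.91 in Y163C, 6.25 in Y220C and 6.74 in Y234C, and at 6.58 in WTKD, 7.14 in WTOE and 6.13 in WT. R273H was lowest and WTOE highest for GINS2, while the other lines lay between 5.55 and 6.74.

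The genes of nucleotide supply and of the replication fork were among the highest of the set. PCNA, the sliding clamp, was at 7.25 in R248Q, 7.84 in R248W, 8.22 in R273C and 7.44 in R273H, at 7.89 in G245S, 8.74 in H179R, 8.41 in R175H, 9.09 in Y163C, 9.08 in Y220C and 8.03 in Y234C, and at 9.02 in WTKD, 8.81 in WTOE and 8.10 in WT. RRM2, the small subunit of ribonucleotide reductase, was at 7.20 in R248Q, 8.23 in R248W, 8.21 in R273C and 8.34 in R273H, at 8.46 in G245S, 8.00 in H179R, 7.64 in R175H, 8.30 in Y163C, 8.05 in Y220C and 7.28 in Y234C, and at 8.55 in WTKD, 8.40 in WTOE and 7.45 in WT. R248Q held the lowest value of both, and for RRM2 the next contact mutant was R273C at 8.21. TYMS, thymidylate synthase, was at 7.23 in R248Q, 7.63 in R248W, 8.19 in R273C and 7.70 in R273H, at 6.97 in G245S, 8.00 in H179R, 7.02 in R175H, 7.90 in Y163C, 7.76 in Y220C and 6.50 in Y234C, and at 8.04 in WTKD, 7.27 in WTOE and 7.25 in WT. RRM1, the large subunit of ribonucleotide reductase, lay at 7.61 to 8.64 in 12 lines and at 6.80 in Y234C. UHRF1, which passes DNA methylation on after replication, ran from 2.95 (H179R) to 4.91 (R273H).

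E2F1 and CCNE1, regulators of the G1/S step, had the largest ranges of all members over the 11 lines without R273H and Y234C (3.55 and 3.76). E2F1 (ENSG00000101412, chr20:33675477-33686385, minus strand), whose promoter holds the octamer shown above, was at 4.09 in R248Q, 4.56 in R248W, 5.06 in R273C and 5.01 in R273H among the contact mutants, at 3.86 in G245S, 2.63 in H179R, 1.84 in R175H, 3.91 in Y163C, 2.76 in Y220C and 2.35 in Y234C among the structural mutants, and at 2.06 in WTKD, 5.38 in WTOE and 3.05 in WT. All 4 contact mutants lay above all 6 structural mutants, and the controls spanned both groups. CCNE1 (ENSG00000105173, chr19:29811991-29824312, plus strand), the E-type cyclin that activates CDK2, was at 3.60 in R248Q, 5.37 in R248W, 4.57 in R273C and 3.52 in R273H, at 5.32 in G245S, 3.73 in H179R, 7.36 in R175H, 5.07 in Y163C, 4.75 in Y220C and 4.21 in Y234C, and at 5.04 in WTKD, 4.89 in WTOE and 5.36 in WT. R175H exceeded the mean of the other 9 mutants by 2.90, in a line that had the lowest E2F1 of all. CCNE2, the second E-type cyclin, was at 3.55 in R248Q, 3.97 in R248W, 4.12 in R273C and 3.11 in R273H, at 4.39 in G245S, 4.37 in H179R, 4.33 in R175H, 4.83 in Y163C, 4.63 in Y220C and 2.93 in Y234C, and at 4.54 in WTKD, 5.08 in WTOE and 3.58 in WT. In R175H CCNE2 was within the range of the other lines.

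**Figure D4:**
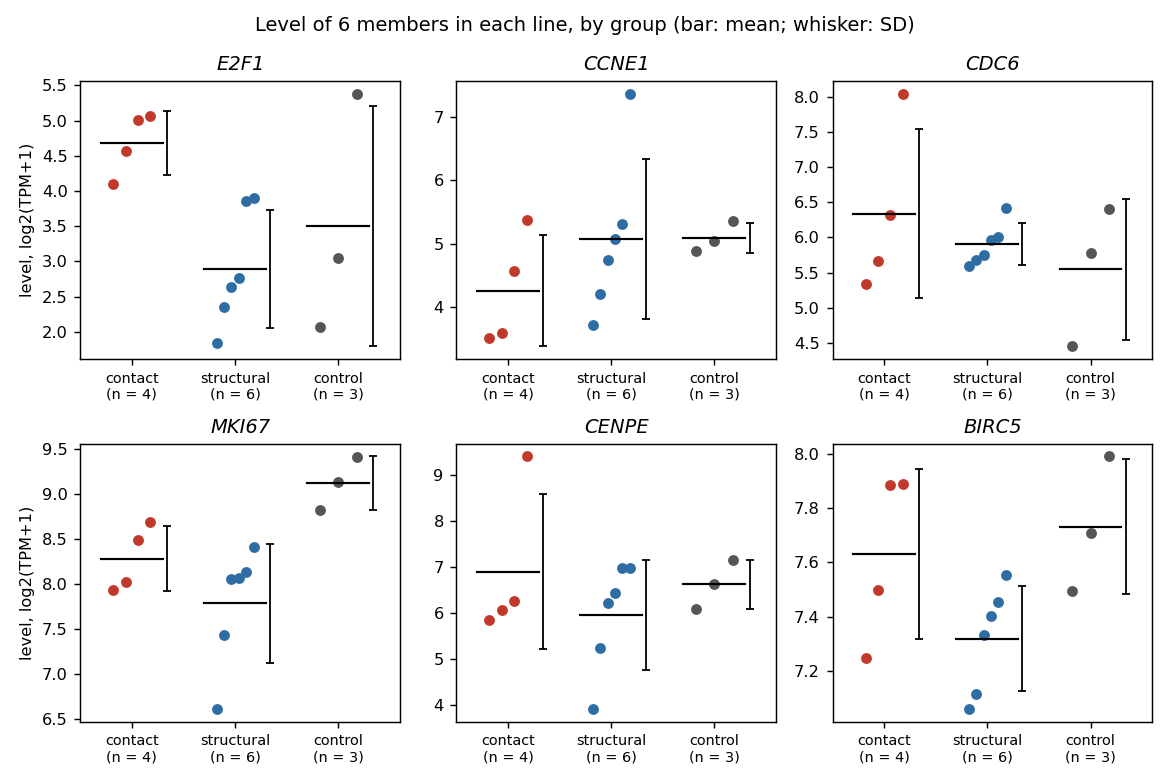
Level in log2(TPM+1) of E2F1, CCNE1, CDC6, MKI67, CENPE and BIRC5 in each line (points), by group (4 contact mutants, 6 structural mutants, 3 controls), with the mean (bar) and SD (whisker). The vertical scale differs between panels. The contact and structural points of E2F1 do not overlap, and every mutant point of MKI67 lies below the control points.

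Among the G2/M genes, the B-type cyclins varied little and their kinase CDK1 varied more. CCNB1, the B-type cyclin that activates CDK1, was at 7.81 in R248Q, 8.72 in R248W, 8.57 in R273C and 8.42 in R273H, at 8.80 in G245S, 8.67 in H179R, 8.54 in R175H, 9.03 in Y163C, 8.44 in Y220C and 8.29 in Y234C, and at 8.92 in WTKD, 8.36 in WTOE and 8.32 in WT. Its range of 1.22 was the second smallest of the 40 members, after that of BIRC5. CCNB2, its close relative, had a range of 1.25, and CCNA2, the cyclin of S and G2, one of 1.94 with its lowest value in Y234C (6.87). CDK1, the kinase that starts mitosis, was at 6.16 in R248Q, 6.61 in R248W, 7.07 in R273C and 5.35 in R273H, at 6.17 in G245S, 7.40 in H179R, 6.74 in R175H, 7.76 in Y163C, 7.96 in Y220C and 5.56 in Y234C, and at 7.38 in WTKD, 6.25 in WTOE and 5.81 in WT. CDK1 thus had a larger range than the cyclins it binds, with Y220C and Y163C highest and R273H and Y234C lowest.

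FOXM1, the transcription factor of G2/M genes, was at 7.12 in R248Q, 6.40 in R248W, 6.83 in R273C and 7.10 in R273H, at 6.80 in G245S, 5.73 in H179R, 6.25 in R175H, 6.42 in Y163C, 5.61 in Y220C and 6.46 in Y234C, and at 5.69 in WTKD, 6.20 in WTOE and 6.66 in WT. R248Q and R273H were highest and Y220C lowest. BIRC5 (survivin, of the chromosomal passenger complex) was at 7.89 in R248Q, 7.25 in R248W, 7.89 in R273C and 7.50 in R273H, at 7.45 in G245S, 7.33 in H179R, 7.12 in R175H, 7.40 in Y163C, 7.06 in Y220C and 7.55 in Y234C, and at 7.50 in WTKD, 7.71 in WTOE and 7.99 in WT. Its range of 0.93 was the smallest of all members, R273H and Y234C included.

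The proliferation markers differed more. MKI67 (ENSG00000148773, chr10:128096659-128126423, minus strand), the Ki-67 protein that coats mitotic chromosomes, was at 8.50 in R248Q, 8.69 in R248W, 7.93 in R273C and 8.03 in R273H, at 8.41 in G245S, 8.07 in H179R, 8.14 in R175H, 8.06 in Y163C, 7.43 in Y220C and 6.61 in Y234C, and at 9.13 in WTKD, 8.82 in WTOE and 9.42 in WT. The highest mutant, R248W at 8.69, lay just below the lowest control, WTOE at 8.82. TOP2A, the topoisomerase that untangles sister chromatids, was at 8.16 in R248Q, 8.57 in R248W, 8.20 in R273C and 7.70 in R273H, at 8.56 in G245S, 8.57 in H179R, 8.07 in R175H, 8.75 in Y163C, 8.48 in Y220C and 5.90 in Y234C, and at 8.92 in WTKD, 8.54 in WTOE and 8.13 in WT. The other 12 lines kept within 7.70 to 8.92 for TOP2A, and Y234C stood apart at 5.90. Without R273H and Y234C the range of TOP2A was 0.85, below that of BIRC5 (0.93).

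The mitotic kinases went different ways in Y234C. PLK1, which acts from mitotic entry to cytokinesis, was at 5.97 in R248Q, 6.29 in R248W, 6.84 in R273C and 6.44 in R273H, at 7.38 in G245S, 6.06 in H179R, 6.80 in R175H, 6.41 in Y163C, 5.66 in Y220C and 7.40 in Y234C, and at 6.29 in WTKD, 7.35 in WTOE and 6.58 in WT. PLK1 was highest in Y234C, as was AURKB, the kinase of the passenger complex, at 7.74 against 4.95 to 7.22 elsewhere. AURKA, the kinase of the spindle poles, was at 6.03 in Y234C and 6.02 in R273H, against 7.05 to 8.16 in the other lines. The checkpoint kinase BUB1 was at 6.40 in R248Q, 7.53 in R248W, 6.94 in R273C and 5.14 in R273H, at 6.99 in G245S, 6.18 in H179R, 6.32 in R175H, 6.95 in Y163C, 6.42 in Y220C and 4.38 in Y234C, and at 7.35 in WTKD, 6.86 in WTOE and 7.16 in WT. R248W, WTKD and WT held its highest values and Y234C and R273H its lowest. BUB1B (BubR1) and TTK (Mps1), which serve the same checkpoint, were also lowest in Y234C, at 4.28 and 3.78, while CDC20, the activator of the anaphase-promoting complex, kept within 6.92 to 8.28 with 7.75 in Y234C.

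CENPE, among the spindle and kinetochore genes, held the largest range of all members. CENPE (ENSG00000138778, chr4:103105349-103198445, minus strand), the kinetochore kinesin that brings chromosomes to the spindle equator, was at 5.85 in R248Q, 6.26 in R248W, 6.05 in R273C and 9.41 in R273H, at 6.21 in G245S, 6.97 in H179R, 5.23 in R175H, 6.96 in Y163C, 6.42 in Y220C and 3.90 in Y234C, and at 7.14 in WTKD, 6.62 in WTOE and 6.09 in WT. Its range of 5.51 came from R273H (3.42 above the mean of the other 9 mutants) and Y234C (-2.70); over the other 11 lines it was 1.91. KIF23, a kinesin of cytokinesis, was at 7.16 in R248Q, 7.51 in R248W, 7.02 in R273C and 5.17 in R273H, at 7.09 in G245S, 7.13 in H179R, 6.45 in R175H, 7.62 in Y163C, 7.07 in Y220C and 4.68 in Y234C, and at 8.16 in WTKD, 7.23 in WTOE and 7.04 in WT. Both R273H and Y234C were low for KIF23. CENPF, a kinetochore protein, was at 8.08 in R248Q, 8.70 in R248W, 8.04 in R273C and 6.97 in R273H, at 8.10 in G245S, 8.28 in H179R, 7.36 in R175H, 8.41 in Y163C, 7.91 in Y220C and 8.18 in Y234C, and at 9.06 in WTKD, 8.40 in WTOE and 8.42 in WT, and R273H was its lowest line.

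TPX2, which helps build the spindle and activates Aurora A, was the highest G2/M member on average, at 8.64 in R248Q, 9.05 in R248W, 8.78 in R273C and 7.55 in R273H, at 9.25 in G245S, 8.42 in H179R, 8.58 in R175H, 8.81 in Y163C, 8.89 in Y220C and 7.44 in Y234C, and at 9.38 in WTKD, 9.73 in WTOE and 9.22 in WT. KIF11, the kinesin that pushes spindle poles apart, ran from 5.92 (Y234C) to 8.00 (WTKD), KIF20A, a kinesin of the midzone, from 6.50 (R273H) to 8.62 (R248W), and NUSAP1, a microtubule-binding protein of the spindle, from 6.67 (Y234C) to 8.89 (R248W). CENPA, the centromeric histone H3 variant, lay between 4.93 and 6.73 with its lowest value in WTKD.

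To ask whether the mutant lines as a group differed from the control lines, limma was fitted over all 14884 tested genes, and a gene was called at an adjusted p under 0.05 (Benjamini-Hochberg, two-sided). With 1 library per line, these p-values measure only the spread between lines, and the control group holds 3 lines made in different ways. In simulated data this fit recovered 0% of planted differences of 1 on the log2 scale and 14.5% of those of 2. A lack of calls therefore says little at such sizes. None of the 40 members was called, by limma, where 3 of 14884 genes were (0.0202%). At an unadjusted p under 0.05, 1 member (2.5%) and 4.83% of all genes stood. That member was MKI67, at 7.99 ± 0.59 (SD, n = 10) in the mutants and 9.12 ± 0.30 (SD, n = 3) in the controls, a difference of -1.14 on the log2 scale (SE 0.45, limma adjusted p = 0.932). It was lower in 10 of 10 mutants than in every control, the only member whose groups did not overlap, while 0.779% of all genes lay lower in this way and 0.222% higher. Measured against the mean of the other 22 G2/M members of the same library, MKI67 was 0.27 to 1.49 higher in the mutants and 1.42 to 2.08 higher in the controls, so that the groups just overlapped.

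The other members came less close. Among G2/M members the next were TPX2 (-0.90, SE 0.45) and CENPF (-0.62, SE 0.43), and among S phase members MCM7 (-0.68, SE 0.44), MCM4 (-0.51, SE 0.42) and GINS2 (-0.54, SE 0.47), all with a limma adjusted p of 0.932. TPX2, whose lowest lines were Y234C and R273H, was at -0.64 without them. The median difference was -0.29 over the G2/M members, with 4 of 23 above 0, and -0.16 over the S phase members, with 5 of 17 above 0, beside -0.08 over all tested genes, of which 45.0% were above 0. The median-of-ratios scaling moved the median of all genes to 0.07, that of the G2/M members to -0.09 and that of the S phase members to 0.04, so the sign of the S phase median was not kept.

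The second question was whether the mutants that touch DNA differ from those that destabilise the fold. No member was called between contact and structural mutants, by limma, and neither was any other of the 14884 genes (0%). In simulated data 0% of planted differences of 1 or 2 were recovered here, so a lack of calls says little at such sizes. At an unadjusted p under 0.05, 1 member and 4.93% of all genes stood. E2F1 was at 4.68 ± 0.45 (SD, n = 4) in the contact mutants and 2.89 ± 0.83 (SD, n = 6) in the structural mutants, a difference of 1.79 (SE 0.52, limma adjusted p = 0.960). By unadjusted p it ranked 59th of all genes. E2F1 was higher in 4 of 4 contact mutants than in every structural mutant and was the only member without overlap, where 0.766% of all genes were higher and 0.262% lower in this way. Over 18 other settings and omissions the difference stayed between 1.57 and 1.99, and the adjusted p between 0.649 and 1.

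PCNA (-0.85, SE 0.45) and GINS2 (-0.62, SE 0.47) followed among S phase members, and FOXM1 (0.65, SE 0.43), CENPE (0.94, SE 0.79) and CDK1 (-0.64, SE 0.57) among G2/M members, with limma adjusted p of 0.960 to 0.977. The difference in CENPE came from R273H and Y234C and was -0.30 without them, and that in GINS2 was -0.15. The median difference was 0.33 over S phase members (11 of 17 above 0) and 0.10 over G2/M members (14 of 23 above 0), beside 0.0051 over all genes. Without R273H and Y234C the S phase and G2/M medians were 0.069 and -0.079.

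**Figure D5:**
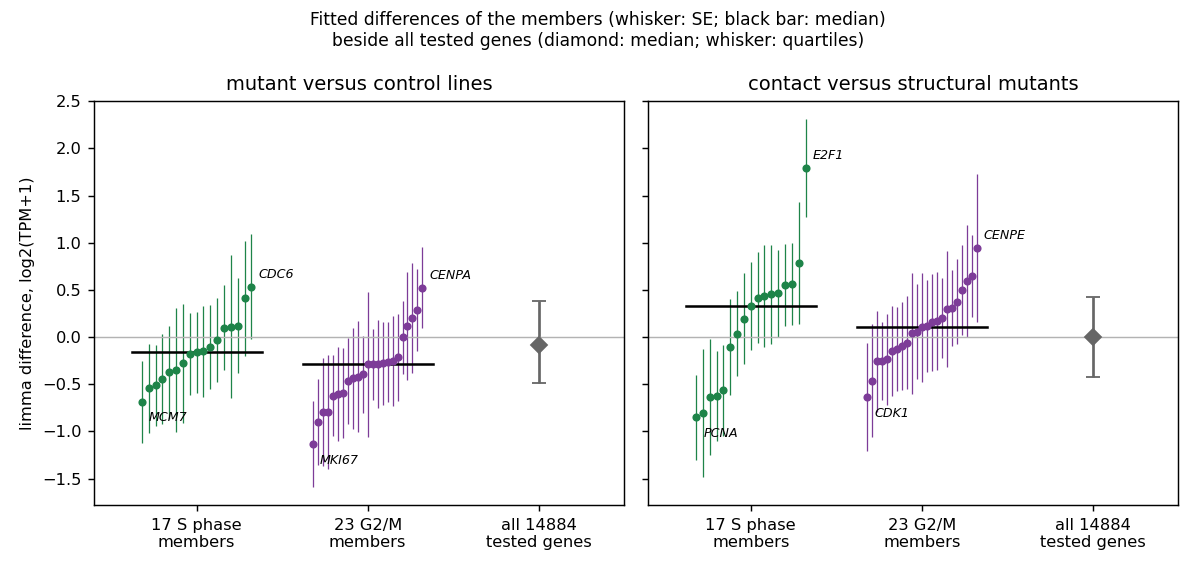
Fitted limma differences in log2(TPM+1) of the members with their SE, for mutant versus control lines (left) and contact versus structural mutants (right), beside the median and quartiles of all 14884 tested genes. MKI67 (-1.14) is the lowest member on the left and E2F1 (1.79) the highest on the right, and neither passed the test.

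Differences between single libraries have no replicate check, so members past 1 on the log2 scale were counted without a test. In WTKD against WT, 7 of 40 members (17.5%) were past 1 in either direction, where 40.4% of all tested genes were. CDK1 (1.57), MCM5 (1.53), TTK (1.45), KIF23 (1.12), RRM2 (1.10) and CENPE (1.05) were higher in WTKD and CENPA (-1.57) was lower. In WTOE against WT, 6 members (15%) were past 1, where 38.4% of all genes were. All 6 were S phase genes, with E2F1 (2.33), CCNE2 (1.50), UHRF1 (1.10), MCM5 (1.10) and GINS2 (1.02) higher in WTOE and CDC6 (-1.33) lower. Both comparisons share the WT library. All 40 members but only 49.9% of tested genes were at a log2 level of at least 1 in every line, so these shares are not matched for level.

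Each mutant was also set against the mean of the other 9 mutants. R273C had 1 member past 1 (23.5% of all genes were), G245S 1 (26.5%), Y220C 2 (26.8%), Y163C 3 (23.7%), R248Q 3 (32.4%), H179R 4 (30.5%), R248W 5 (28.5%) and R175H 5 (28.7%). In these 8 lines the members' share was 2.5% to 12.5%, below the share of all genes each time, but the shares are not matched for level. After median-of-ratios scaling the count was 0 in Y163C, 1 in R248W, 6 in Y220C and 7 in H179R. R273H had 18 members past 1 (49% of all genes) and Y234C 21 (55%), shares of 45% and 52.5% that are near those of all genes. In R273H the higher members were CENPE (3.42), CDC6 (2.19), E2F1 (1.55), MCM2 (1.38), MCM6 (1.32) and AURKB (1.17), and all 6 stayed past 1 after median-of-ratios scaling. Its 12 lower members were led by GINS2, MCM5 and KIF23 (-1.71 to -1.69), and of the 12 these alone stayed past 1 after that scaling. FOXM1, KIF11, MCM3, MCM4, RRM2 and UHRF1 were then past 1 on the higher side (1.02 to 1.50), so 6 higher and 12 lower members became 12 higher and 3 lower. In Y234C the higher members were MCM5 (2.31), AURKB (1.74) and MCM2 (1.02), which also stayed. The 18 lower members of Y234C became 5 after that scaling, namely MCM6 (-3.01 as deposited), CENPE (-2.70), TOP2A (-2.44), KIF23 (-2.24) and BUB1 (-2.16), while 13 members were then higher. After quantile normalization Y234C had 10 lower and 6 higher members past 1, and R273H had 9 lower and 7 higher.

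In the lines other than R273H and Y234C the members past 1 were few enough to name. CDK1 was higher in Y220C (1.43) and Y163C (1.21), with TTK (1.07 and 1.02), and KIF23 was higher in Y163C (1.03). E2F1 was higher in R273C (1.62) and R248W (1.06) and lower in R175H (-1.97) and H179R (-1.08). AURKB was lower in R175H (-1.36) and H179R (-1.07). R175H was further higher in CCNE1 and lower in CENPE (-1.22) and MCM5 (-1.08), and H179R lower in UHRF1 (-1.27) and CCNE1 (-1.14). R248W was also higher in BUB1, MCM6, KIF20A and BUB1B, by 1.08 to 1.34. In R248Q, CCNE1 (-1.28), UHRF1 (-1.08) and PCNA (-1.06) were lower, and in G245S only CDT1 was (-1.44).

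Genes of the same pathways outside the 40 gave no call either, in fits that seldom recovered planted differences of 2. By limma, 0 of 34 other replication genes, 0 of 32 other mitosis genes, 0 of 14 tested G1 cyclins, kinases and inhibitors and 0 of 19 genes of the RB, E2F, DREAM and MYB-MuvB group were called in either comparison. At an unadjusted p under 0.05 these lists held 0, 1, 1 and 0 genes for mutant versus control lines and 2, 0, 2 and 0 for contact versus structural mutants. CDKN2A and CDKN2B, the INK4 inhibitors of CDK4 and CDK6 that MCF10A is known to have lost, were listed at 0 in all 13 lines.

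CCND2, a D-type cyclin, was the gene of lowest p among them in both fits. It was at 4.32 ± 1.66 (SD, n = 10) in the mutants and 7.23 ± 0.56 (SD, n = 3) in the controls, a difference of -2.91 (SE 0.88, limma adjusted p = 0.640), and was -2.25 (SE 0.73) between contact and structural mutants. The highest mutant (R175H, 6.63) was below the lowest control (WT, 6.71), and 0.779% of all genes lay lower in this way. CDK6 (-0.95) and CDK4 (0.72), the kinases of D-type cyclins, followed between mutant and control lines. Between contact and structural mutants CDC25A (-1.21), a phosphatase that activates CDK2, and the inhibitor CDKN2D (1.26) followed. Of the other D-type cyclins, CCND1 had a mean of 8.30 in the mutants and 8.93 in the controls. CCND3 was higher in the mutants, at 6.77 against 6.15.

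In the mutant lines, UBE2C, a ubiquitin-conjugating enzyme of the anaphase-promoting complex, had a difference from the controls of -1.17, the kinesin KIF18A one of -1.0 and the phosphatase CDC25C one of -1.07. Of replication genes, the flap nuclease FEN1 (-0.91), the primase subunit PRIM1 (-1.02) and the clamp loader subunit RFC5 (-0.82) came first there. Among RB and E2F genes these were LIN37 (1.13), E2F7 (-0.62) and E2F3 (-0.56). Between contact and structural mutants the first were DBF4 (-1.53), POLD1 (1.07) and GINS4 (1.12) for replication. For mitosis they were ESPL1 (0.87), INCENP (-0.99) and SPC25 (-1.0), and for the RB and E2F group E2F2 (-1.0), MYBL2 (0.75) and E2F5 (-0.73). None of these differences passed the test.

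Members of one phase did not rise and fall together strongly over the lines. The median Pearson r over pairs was 0.30 within the G2/M set (253 pairs), 0.06 within the S phase set (136 pairs) and 0.18 between the sets, beside 0.11 over pairs of every fifteenth tested gene, each over 13 lines. All pairs share the same libraries, whose scale moves every gene, so these values are a description. Without R273H and Y234C the values were 0.26 within G2/M, 0.12 within S phase, 0.18 between the sets and 0.018 over other genes, and after quantile normalization 0.19, 0.06, 0.07 and 0.0058. After median-of-ratios scaling they were 0.07, 0.21, 0.06 and 0.0067, and only there the S phase set came above the G2/M set.

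Binding of V5-tagged p53 near the members was read from the peak lists of 5 lines, each called against input DNA of the same line and each from 1 ChIP library. A promoter was taken as 2500 bp upstream to 100 bp downstream of any GENCODE start site in GRCh38, with an overlap of at least 1 bp. Of the 40 members, 0 had such a peak in R273C (0.0606% of 57717 genes did), 0 in R273H (1.98%), 0 in Y220C (0.428%), 0 in Y234C (0.82%) and 2 (5.00%) in WTOE (3.71%). With 40 genes these counts are near those shares, which are not matched to the members for expression or number of start sites. The peaks were at FOXM1 (chr12:2877235-2877548, summit 65 bp before a start, fold enrichment 3.08, -log10 q 1.73) and E2F1 (chr20:33688009-33688307, summit 1721 bp before a start, fold enrichment 2.73, -log10 q 1.41). Both had a -log10 q under 3, and neither was kept at that threshold.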

How the data were processed

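RNA of 13 MCF10A lines was measured with 1 library per line. The authors aligned reads with STAR to GRCh38 (Ensembl release 92), left out mitochondrial RNA, and deposited TPM values with 1 added and log2 taken. Duplicate reads were marked and kept by the authors, who found high duplication and used counts without duplicates as a check; which of these counts gave the deposited TPM is not spelled out. No counts are in the table used here, so the depth behind a level is unknown. V5 ChIP-seq peaks of 5 lines were called by the authors with Bowtie2 2.1.0, SAMtools 1.7 and MACS2 2.1.2.20181017. For each peak the deposited ratio is its fold enrichment over input at the summit, and its deposited -log10 p and q and its deposited score, which was not used, also come from MACS2.

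Members, lists and tests were chosen with earlier results of these data known. Python 3.11.15, R 4.3.3 with limma 3.58.1 and bedtools 2.31.1 were used. limma was fitted to the 14884 genes that reached a log2(TPM+1) of 1 in 3 or more lines, without covariates, for 10 mutant against 3 control lines and for 4 contact against 6 structural mutants, two-sided, with Benjamini-Hochberg adjustment over all genes, and was tested on simulated data. A planted difference of 2 on the log2 scale was recovered in 14.5% of genes for mutant versus control lines and 0% for contact versus structural mutants, and one of 4 in 85.5% and 84.5%. All 40 members were named, with values in every line for 16 well-known members and for those of largest range or lowest p in each phase; of other genes CDKN1A, CDKN2A and the 3 of lowest p in each pathway list and fit. Alternatives were a pseudocount of 0.1, other filters, median-of-ratios scaling, quantile normalization, limma with trend and robust settings, the number of genes above 0 as covariate and lines left out. For peaks they were a -log10 q of at least 3, a window of 1000 bp on each side and the summit within the window. Start sites were those of GENCODE 44. The level of the targeted gene is not reported here. Input DNA was not analysed here on its own. Whether the counting used strand is not given in the sources used here.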

Additional observations from a re-analysis of the deposited data

Results flagged for a closer look

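Within the 4 contact and the 6 structural mutants, the highest and lowest line of each member and of both phase means were compared with the nearest other line by Dixon's criterion, 84 groups in all. It marked 11 groups, of which 9 had Y234C as the low line. For a single group chance alone marks about 1 in 20. The 84 groups share the same libraries, so their count cannot be tested against that rate. Over all tested genes Y234C was marked as the low structural line in 9.83%, and in 20.6% of the 4031 with a mean of at least 5, beside 8 of the 40 members (20%). The 9 groups were, in Y234C against the next structural line, MCM6 (3.81 against 6.26), RRM1 (6.80 against 7.98), CCNE2 (2.93 against 4.33), TOP2A (5.90 against 8.07), BUB1 (4.38 against 6.18), BUB1B (4.28 against 5.89), TTK (3.78 against 5.53), NUSAP1 (6.67 against 8.39) and the mean of the G2/M members (6.30 against 7.10). The library of Y234C also had the lowest median over all tested genes. Median-of-ratios scaling was an alternative for this criterion chosen after seeing the data. After it, MCM6 and TOP2A alone of the 40 members stayed marked with Y234C as the low structural line. These are 5% of the members, beside 3.34% of all tested genes and 4.94% of those with a mean of at least 5. The G2/M mean of Y234C was then 7.28, and it was 6.76 after quantile normalization. Against the mean of the other 9 mutants, NUSAP1 was at -0.65 after median-of-ratios scaling, RRM1 at -0.42, CCNE2 at -0.21 and BUB1B at -0.66. Among the contact mutants CENPE stood apart in R273H (9.41 against 6.26) and RRM2 in R248Q (7.20 against 8.21). Whether these marks stay after median-of-ratios scaling was not tested, and no share of all tested genes was computed for the contact lines. After that scaling CENPE in R273H was at 4.04 and RRM2 in R248Q at -0.90 against the mean of the other 9 mutants.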

How the results depend on the processing

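No paired analysis was possible because each line has 1 library and the labels carry no shared replicate numbers. No member was called in either comparison under any of the 21 alternatives for mutant versus control lines and the 18 for contact versus structural mutants, lines left out included, while calls over all genes ranged from 0 to 11 and from 0 to 5. Members at an unadjusted p under 0.05 numbered 0 to 3 and 1 to 3. With single lines left out, the median difference between mutant and control lines ran from -0.22 to -0.04 for S phase and from -0.45 to -0.28 for G2/M members, and that between contact and structural mutants from 0.13 to 0.41 and from -0.14 to 0.22. Without R273H and Y234C the S phase median between contact and structural mutants was 0.069 and CENPE was at -0.30. MKI67 kept its sign in all alternatives (-1.29 to -0.94, adjusted p 0.549 to 0.992, limma). Members past 1 on the log2 scale changed after median-of-ratios scaling to 1 in R248W, 7 in H179R, 0 in Y163C and 6 in Y220C, and after quantile normalization to 3 in R248W, 1 in Y163C and 5 in Y220C; the cause was not tested. Members with a promoter peak in WTOE fell to 0 at a -log10 q of at least 3 and to 1 (FOXM1) with 1000 bp on each side. Unknown depth limits the low levels most, E2F1 and CCNE2 among them.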
